A study of Mus musculus with 2 samples.

Results

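The genes described here encode fibronectin and 8 matricellular proteins, *Fn1*, *Tnc*, *Thbs1*, *Thbs2*, *Postn*, *Sparc*, *Ccn1*, *Ccn2* and *Spp1*. They were taken by gene symbol, and all 9 were found among the 26082 genes of the deposited tables. The study asked how TGFBR3, a TGF-β co-receptor, affects the adipogenesis of fibro-adipogenic progenitors (FAPs), the mesenchymal cells of skeletal muscle that can become fibroblasts or adipocytes. Bulk poly(A) RNA-seq was deposited for 1 library labelled TGFBR3 OE (overexpression) and 1 library labelled control, both from primary mouse FAPs of WT genotype. Both cultures shared the adipogenic induction medium, in which serum (FBS) stood at 20%, insulin at 10 μg/ml, dexamethasone at 0.25 μM and IBMX, a phosphodiesterase inhibitor, at 0.5 mM. The methods name C57BL/6 mice of 6 to 8 weeks of age and FAPs sorted from digested hind-limb muscle, but the number of pooled animals and the time of harvest were not given in the sources used here. With 1 library per group there was no replicate check: no test was made, no p-value is given, and the intervals below are exact 95% intervals that cover counting error only.

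The libraries held 62321027 counts (TGFBR3 OE) and 83779203 counts (control). The targeted gene did not separate them. *Tgfbr3* had an FPKM (read fragments scaled to transcript length and library depth) of 36.9 in the library labelled TGFBR3 OE and 35.1 in the library labelled control, a log2 ratio of 0.07 (0.04 to 0.10). Every direction below is therefore that of the labels. All ratios are log2 of (FPKM + 1), TGFBR3 OE over control, so that a negative value is lower in the library labelled TGFBR3 OE. Among the 10626 genes that reached FPKM 1 in each library the middle gene sat at 0.13, and ratios called centred have this shift removed. The median ratio also moved with base composition, from 0.45 among the genes of lowest GC content to -0.25 among those of highest GC content. Of the FAP markers, *Pdgfra* (30.5 and 32.6) and *Ly6a*, which encodes Sca-1 (1013 and 706), were expressed in both libraries, whereas *Pi16*, a marker of one FAP state, was nearly absent (FPKM 0.03 and 0.08). Of 8 FAP markers, 7 had an average FPKM of 1 or more, 5 lower and 2 higher with a median of -0.30. Of these 7, *Clec3b* and *Dpt* were more than 2-fold lower with ratios of -1.58 and -1.12. Among all genes with an average FPKM of 1 or more, 1.03% were at least 2-fold lower.

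Fibronectin is a secreted glycoprotein dimer that cells stretch into fibrils through integrins, and these fibrils serve as a scaffold on which collagens and other matrix proteins are laid down. Matricellular proteins are secreted into the same matrix but act less as structure than as signals, binding integrins, growth factors and proteases. In injured muscle, FAPs and fibroblasts are a main source of these proteins, and several of the genes are classic targets of TGF-β and of the mechanosensitive co-activator YAP.

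Promoter windows from RefSeq (build GRCm38.p6) were found for 6 of the 9 genes, namely *Ccn1*, *Postn*, *Sparc*, *Spp1*, *Thbs2* and *Tnc*. The 250 bases before the start of *Ccn1* and *Tnc* are shown because these genes lay on opposite sides of no change and differ in the letters they hold. Both are written 5′ to 3′ on the minus strand, at chr3:145649986-145650235 for *Ccn1* and chr4:64047016-64047265 for the first window of *Tnc*. Capitals mark the TATA box letters TATAAA in both, and CATTCC, the reverse complement of the TEAD core GGAATG, in *Ccn1*.
Ccn1: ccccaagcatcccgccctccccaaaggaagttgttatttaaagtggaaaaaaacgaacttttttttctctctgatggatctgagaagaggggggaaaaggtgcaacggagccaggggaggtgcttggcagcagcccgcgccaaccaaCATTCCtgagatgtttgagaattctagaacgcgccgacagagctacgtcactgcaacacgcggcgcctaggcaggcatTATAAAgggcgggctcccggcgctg
Tnc: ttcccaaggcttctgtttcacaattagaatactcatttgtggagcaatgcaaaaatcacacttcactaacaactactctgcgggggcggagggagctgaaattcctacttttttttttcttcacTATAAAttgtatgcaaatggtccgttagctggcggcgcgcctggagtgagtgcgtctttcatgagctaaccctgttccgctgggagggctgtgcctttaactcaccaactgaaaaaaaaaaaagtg

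In the *Ccn1* window the TEAD core began 103 bases before the start and the TATA box 25 bases before it. The TATA box letters of *Tnc* lay farther out, 126 bases before the start of its first window and 205 bases before that of its second. Both strands of each full window (250 bases before to 50 after the start) were searched. GGAATG was found in 14.7% of all 32851 RefSeq windows, or in 16.6% of 27025 genes when any window of a gene was counted. Among the 6 genes, which had 9 windows, it was found in *Ccn1* alone. TATAAA was found in 13.6% of all windows (15.7% of genes) and in windows of *Ccn1*, *Postn*, *Spp1*, *Thbs2* and *Tnc*. CAGACA, which SMAD proteins can bind, stood in 21.0% of all windows (23.6% of genes) and in windows of *Sparc*, *Spp1*, *Thbs2* and *Tnc*. The AP-1 letters TGANTCA (7.81% of all windows), the SMAD palindrome GTCTAGAC (0.213%) and the CArG box of SRF (1.63%) matched none of these 6 genes' windows. These are matches of letters and not measured binding.

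Of the 9 genes, 7 were lower and 2 higher in the library labelled TGFBR3 OE, with a median ratio of -0.13 and a centred median of -0.26. Across the 11213 genes whose FPKM averaged 1 or more (expressed genes below) the median was 0.14, and across the 475 whose FPKM averaged 100 or more (abundant genes) it was -0.20. Among the 9, 6 belonged to those 475 abundant genes, whereas *Tnc*, *Thbs2* and *Postn* did not. The median of the 9 lay nearer to that of the abundant genes, and the part of expression level in this was not tested. *Fn1* alone was at least 2-fold lower and none was at least 2-fold higher, where 1.03% of the 11213 genes were at least 2-fold lower and 3.14% at least 2-fold higher. At 1.5-fold, *Fn1* was lower (background 4.91%) and *Tnc* higher (background 13.3%). The other 7 lay within 1.5-fold, between -0.48 and 0.02.

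**Figure D1:**
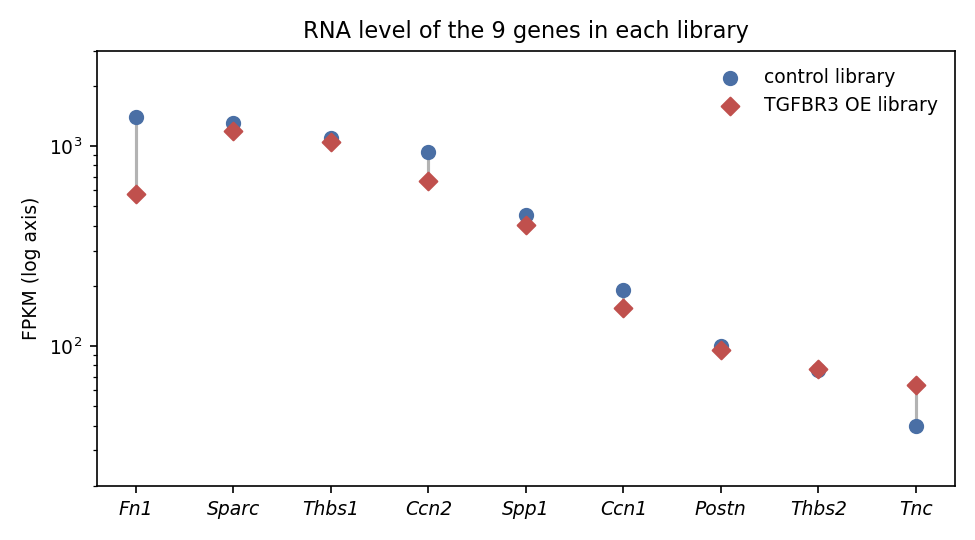
FPKM of the 9 genes in the library labelled TGFBR3 OE and the library labelled control, 1 library each, on a log axis. A grey line joins the points of each gene and is not an interval. The pair of points for *Fn1* is the widest apart, 577 against 1403, and *Tnc* is the one gene with a clearly higher point in TGFBR3 OE, 63.7 against 39.6.

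**Figure D2:**
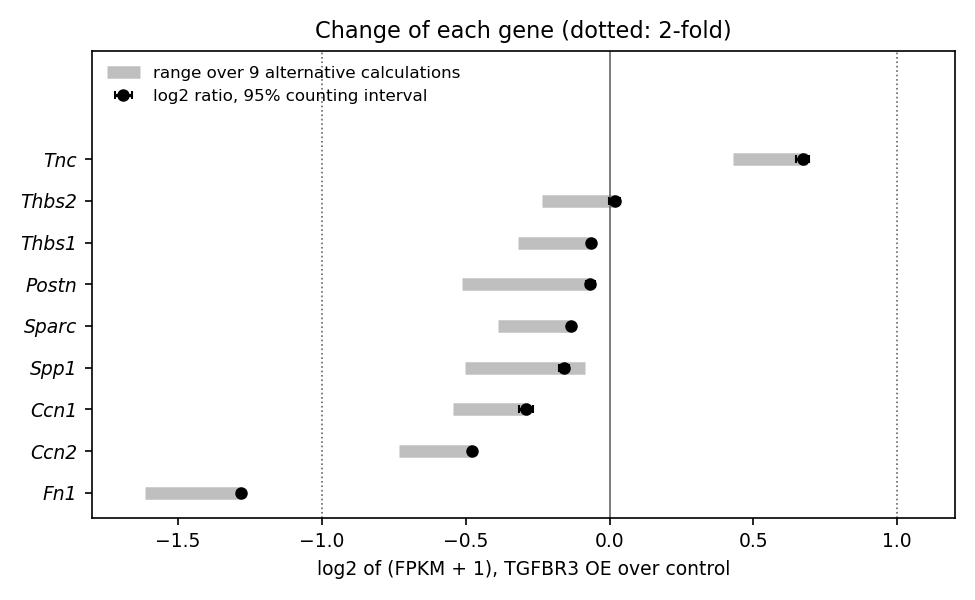
Log2 ratio of (FPKM + 1), TGFBR3 OE over control, for each gene, with its 95% counting interval and, in grey, its range over 9 alternative calculations (other pseudocounts and scalings, or trends with GC content or length removed); dotted lines mark 2-fold. *Fn1* stays beyond the 2-fold line in its whole range, from -1.62 to -1.28, and *Tnc* stays above 0, from 0.43 to 0.69.

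Fibronectin was the gene with the largest difference. *Fn1* (ENSMUSG00000026193, chr1:71585520-71653200, minus strand, GENCODE M21 on mm10) had an FPKM of 577 in the library labelled TGFBR3 OE and 1403 in the library labelled control, from 457199 and 1514929 counts. It was thus 2.43-fold lower, with a log2 ratio of -1.28 (-1.29 to -1.28) and a centred ratio of -1.41. It held more counts than any other gene in the library labelled control and was second in the library labelled TGFBR3 OE. Its ratio was 56th from the lowest of 11213 genes and 5th from the lowest of the 475 abundant genes, of which 2.11% were at least 2-fold lower and 4.21% at least 2-fold higher. At 1.5-fold, 13.9% of the abundant genes were lower and 8.00% higher. Among the 428 abundant protein-coding genes, *Ifi27*, an interferon-induced gene, was lower still at -1.70. The other abundant protein-coding genes at least 2-fold lower were *Igfbp6* (-1.12), which binds insulin-like growth factors, *Sod3* (-1.11), the extracellular superoxide dismutase, *Col3a1* (-1.05), which encodes collagen III, and *Ndufa4l2* (-1.02).

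**Figure D3:**
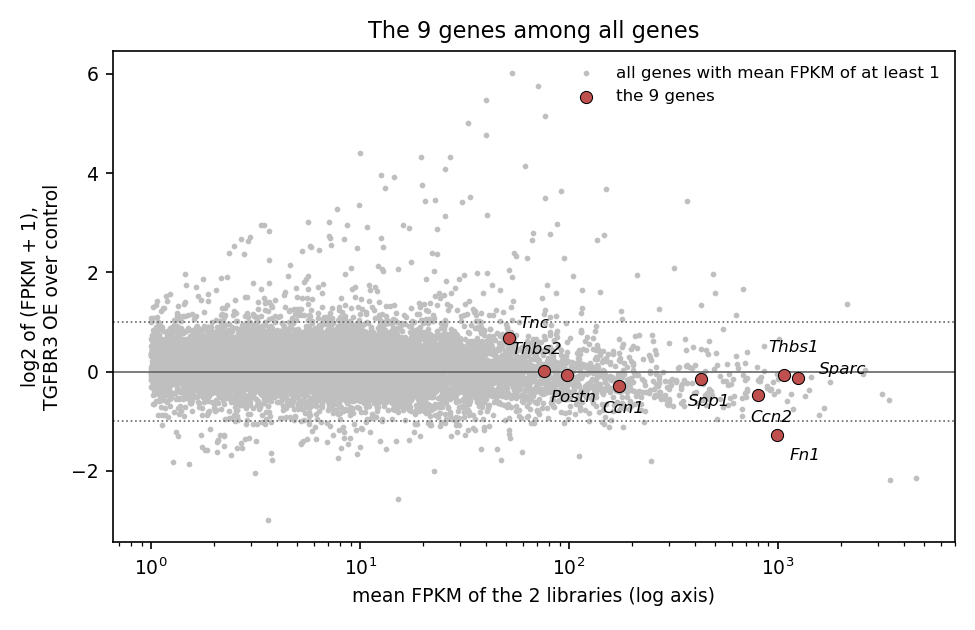
Log2 ratio of (FPKM + 1), TGFBR3 OE over control, against mean FPKM on a log axis for all 11213 expressed genes, with the 9 genes marked. *Fn1* at -1.28 lies at the lower edge of the abundant genes, whereas the other 8 lie within the main cloud.

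The 2 thrombospondins, *Thbs1* and *Thbs2*, encode trimeric proteins, and thrombospondin 1 is known as an activator of latent TGF-β. *Thbs1* (chr2:118111876-118127133, plus strand) had an FPKM of 1049 in the library labelled TGFBR3 OE and 1098 in the library labelled control, a ratio of -0.07 (-0.07 to -0.06). *Thbs2* (chr17:14665500-14694235, minus strand) had 76.5 and 75.6, a ratio of 0.02 (-0.00 to 0.04). Both were within 1.5-fold, and the sign of *Thbs2* was negative in 7 of the 9 alternative calculations. *Thbs1* was the more abundant of the 2 per length by a similar factor in both libraries, 13.7-fold in TGFBR3 OE and 14.5-fold in control. A different picture was seen in their pentameric relatives. *Thbs4*, expressed in tendon and injured muscle, had 28.6 in TGFBR3 OE and 90.0 in control (-1.62, interval -1.66 to -1.58). *Comp*, the cartilage oligomeric matrix protein, had 3.04 and 12.6 (-1.75, -1.84 to -1.64). *Thbs3* hardly differed, at 4.63 and 4.77 (-0.04). Of 5 tenocyte markers, 4 were expressed and 3 of these were lower, and the summed FPKM of the list was 95.4 in TGFBR3 OE and 199 in control. *Thbs4* itself and *Fmod* (63.9 and 105) carry nearly the whole of both sums. The other tenocyte markers were low, *Scx* at 0.74 and 2.04, *Mkx* at 2.15 and 1.92 and *Tnmd* at 0.04 and 0.15. Their part in the thrombospondin values was not tested. In bulk samples, fewer cells of a type and less RNA per cell cannot be told apart.

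Tenascin C was the one gene of the 9 that was higher beyond 1.5-fold. *Tnc* (ENSMUSG00000028364, chr4:63959785-64047015, minus strand) encodes a large hexameric glycoprotein that appears in healing and mechanically loaded tissue and counters the adhesion of cells to fibronectin. It had an FPKM of 63.7 in the library labelled TGFBR3 OE (33564 counts) and 39.6 in the library labelled control (28421 counts), so that its raw count was higher in the shallower library. It was 1.61-fold higher, with a ratio of 0.67 (0.65 to 0.69) and a centred ratio of 0.55. Its ratio was higher than that of 90.5% of the 11213 genes, and it was 1.5-fold higher or more in 5 of the 9 alternative calculations. The other tenascin expressed here, *Tnxb*, went the other way with 4.33 and 5.84 (-0.36). The gene *8030451A03Rik* lies on the opposite strand and shares 176 exon bases with *Tnc*, but had 71 and 12 counts. These counts are few beside those of *Tnc*.

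The CCN proteins are small cysteine-rich regulators that bind integrins and growth factors, and *Ccn1* and *Ccn2* are known as immediate targets of YAP and TGF-β. *Ccn2* (ENSMUSG00000019997, chr10:24595442-24598683, plus strand), the connective tissue growth factor, had an FPKM of 672 in the library labelled TGFBR3 OE and 935 in the library labelled control, a ratio of -0.48 (-0.49 to -0.47). *Ccn1* (ENSMUSG00000028195, chr3:145646976-145649981, minus strand), whose window with the TEAD core is shown above, had 155 and 190.4, a ratio of -0.29 (-0.32 to -0.27). Both were lower by less than 1.5-fold, and *Ccn2* was lower by 1.5-fold or more in 3 of the 9 alternative calculations. The level of *Ccn2* was 4.32 times that of *Ccn1* per length in TGFBR3 OE and 4.91 times in control. A noncoding gene on the opposite strand, *Gm15270*, covers 665 of the exon bases of *Ccn2* and had 51 counts in TGFBR3 OE and 446 in control. Whether strand was used in the counting was not given in the sources used here, and 446 counts are few beside the 247173 of *Ccn2*. Their relatives differed in direction. *Ccn3* had 3.24 and 5.70 (-0.66), *Ccn4* 17.9 and 12.9 (0.44) and *Ccn5*, the most abundant of these relatives, 511 and 546 (-0.09). With the GC trend removed, *Ccn3* was at -0.98, *Ccn4* at 0.21 and *Ccn5* at 0.00. *Ccn6* was listed at 0 in both libraries.

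**Figure D4:**
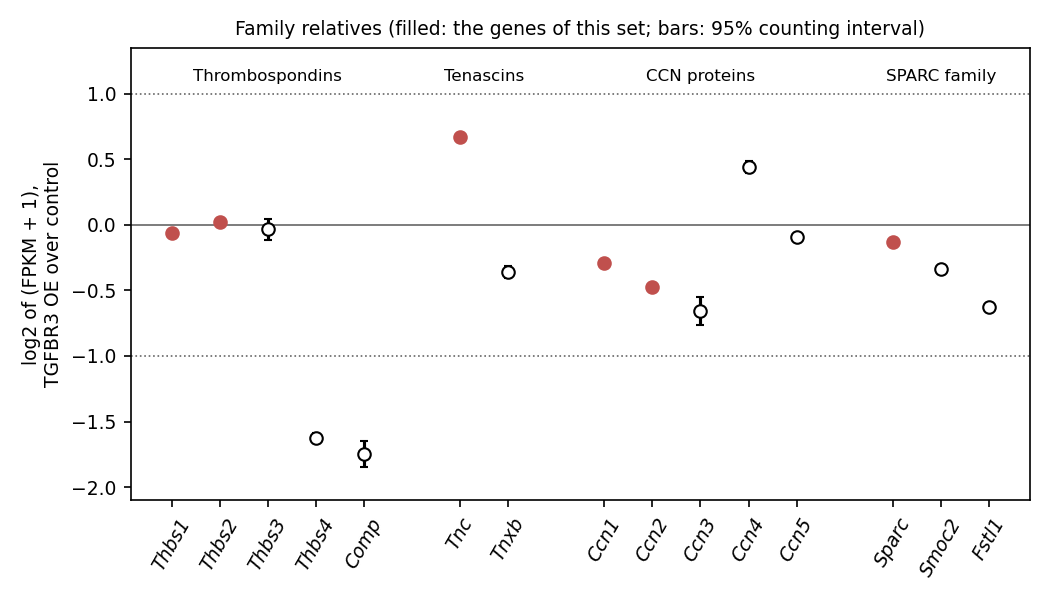
Log2 ratio of (FPKM + 1), TGFBR3 OE over control, of the thrombospondins, tenascins, CCN proteins and the SPARC family; filled points are the 9 genes' members of these families, open points their relatives, and bars are 95% counting intervals. *Thbs4* (-1.62) and *Comp* (-1.75) lie beyond the lower 2-fold line, whereas *Thbs1* and *Thbs2* lie near 0. The highest points are *Tnc* (0.67) and *Ccn4* (0.44).

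*Sparc* and *Postn* encode collagen-binding proteins that take part in the assembly of collagen fibrils. *Sparc* (chr11:55394500-55423183, minus strand) was among the most abundant transcripts, with an FPKM of 1191 in the library labelled TGFBR3 OE and 1306 in the library labelled control and a ratio of -0.13 (-0.14 to -0.13). *Postn* (chr3:54361109-54391037, plus strand), which encodes periostin, had 95.2 and 99.8, a ratio of -0.07 (-0.08 to -0.05). Once the GC trend was removed, the ratio of *Postn*, whose exons had the lowest GC content of the 9 genes (39.1%), was -0.51, the widest shift between calculations of any of the 9. The relatives of *Sparc* were lower too. *Smoc2* had 20.6 and 26.3 (-0.34), and *Fstl1*, a secreted glycoprotein of FAPs and other stromal cells, had 270 and 416 (-0.62).

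*Spp1* (ENSMUSG00000029304, chr5:104435118-104441050, plus strand) encodes osteopontin, a phosphoprotein that binds integrins and CD44 and that macrophages also make. It had an FPKM of 403 in the library labelled TGFBR3 OE and 449.8 in the library labelled control, a ratio of -0.16 (-0.18 to -0.14). This ratio depended on the calculation, and was -0.50 with the GC trend removed, -0.41 with DESeq2 size factors and -0.09 with the length trend removed. The 9 macrophage markers together reached an FPKM of 0.91 in TGFBR3 OE and 0.54 in control, none was expressed by the criterion above, and *Adgre1*, *Tyrobp* and *Fcer1g* were listed at 0 in both libraries. The same-strand gene *Gm42793* shares 309 exon bases with *Spp1* and had 35 and 6 counts beside 45051 and 68486 of *Spp1*. Other lists were low as well. The endothelial list summed to 2.40 and 2.03 with *Tie1* at 0, the 5 muscle cell markers analysed to 1.65 and 1.30, the pericyte and smooth muscle list to 4.30 and 5.73 and the 3 Schwann cell markers analysed to 2.02 and 3.80.

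The 9 genes together took 2.44% (2.43 to 2.44) of all counts in the library labelled TGFBR3 OE and 3.70% (3.69 to 3.70) in the library labelled control. *Fn1* alone took 0.734% and 1.81%, and so made up 1.07 of the 1.26 percentage points between the libraries. Without *Fn1* the remaining 8 genes took 1.70% and 1.89%. Within the 9, *Fn1* gave 30.1% of the counts in TGFBR3 OE and 48.9% in control, whereas *Thbs1* gave 28.5% and 19.9% and *Sparc* 20.1% and 14.8%. These 3 genes held most of the counts in both libraries, although *Fn1* has by far the longest exons of the 3 (11685 bases) and its share of counts is raised by that length.

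**Figure D5:**
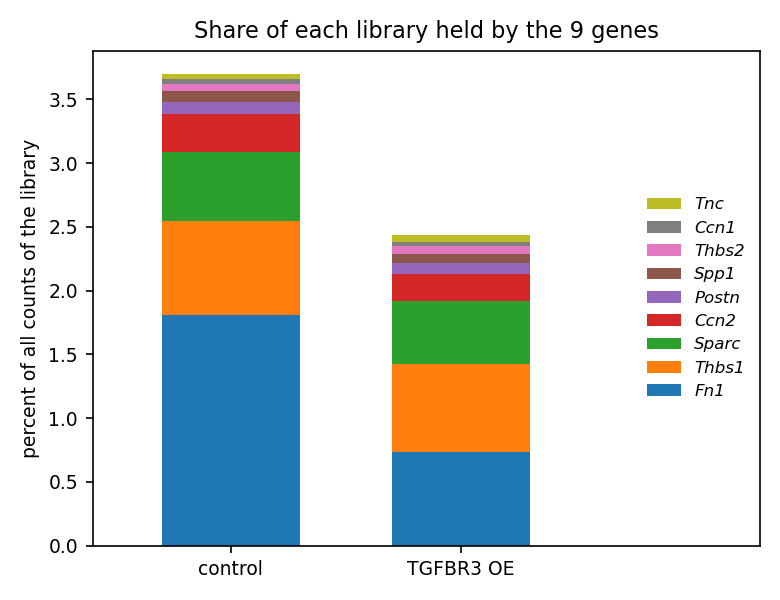
Percent of all counts held by each of the 9 genes, stacked, in the library labelled TGFBR3 OE and the library labelled control, from 0. The bar is 2.44% high in TGFBR3 OE and 3.70% in control, and most of the gap is the *Fn1* segment, 0.734% against 1.81%.

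Ratios of counts between the genes themselves need no scaling between the libraries. Relative to the other 8 genes, *Fn1* was lower by 1.15 on the log2 scale, with a ratio of -1.15 (-1.16 to -1.15). Relative to the other genes without *Fn1*, *Tnc* had a ratio of 0.84 (0.81 to 0.86), *Ccn2* of -0.40 (-0.41 to -0.39), and *Sparc* of -0.00 (-0.01 to 0.00). The order of levels per length changed at the top. In the library labelled control, *Fn1* (1403) stood first, ahead of *Sparc* (1306), *Thbs1* (1098) and *Ccn2* (935). In the library labelled TGFBR3 OE the order was *Sparc* (1191), *Thbs1* (1049), *Ccn2* (672) and *Fn1* (577). In FPKM, *Fn1* was 1.28 times *Thbs1* in control and 0.550 times in TGFBR3 OE, and 35.5 times *Tnc* in control and 9.06 times in TGFBR3 OE. *Spp1* and *Ccn1* followed in both libraries, and the last 3 were *Postn*, *Thbs2* and *Tnc*. No neighbours in either order had overlapping counting intervals, but the spread between cultures is not known.

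Taken as a list, the other matricellular genes were mostly lower. Of 21 relatives, 18 were analysed here and 9 were expressed, of which 8 were lower and 1 higher, with a median of -0.36. Over the 9 alternative calculations this median was between -0.67 and -0.38. The background median was 0.14 across the 11213 expressed genes and -0.20 across the 475 abundant genes, for this list and those below. Of the 9 expressed relatives, 2 (*Thbs4* and *Comp*) were at least 2-fold lower, beside 1.03% of the 11213 genes. Receptors of the 9 proteins, integrin chains and others such as the syndecan *Sdc4*, were divided, with 6 lower and 7 higher of 13, none beyond 2-fold and a median of 0.04. The sign of this median was not stable, since it was -0.09 centred, -0.19 with TMM scaling, -0.22 with DESeq2 size factors, -0.17 with the GC trend removed and -0.08 with the length trend removed. The fibronectin receptor chain *Itga5* was at 126 and 123 (0.04) and its partner *Itgb1* at 292 and 230.0 (0.34). *Cd44*, the osteopontin and hyaluronan receptor, had 59.7 in TGFBR3 OE and 37.6 in control (0.65), and *Cd47*, the thrombospondin receptor, had 32.2 and 19.5 (0.70). After removal of the GC trend the ratio of *Itgb1* was 0.03, that of *Cd44* 0.34 and that of *Cd47* 0.36. *Lrp1*, an endocytic receptor that clears thrombospondins and proteases, had 102 and 166 (-0.70).

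Proteins of focal and fibrillar adhesions, taken as 1 list, had 4 lower and 8 higher genes of 12. Their median was 0.14, which is that of all 11213 genes. Here too the sign turned, to -0.07 with TMM scaling, -0.10 with DESeq2 size factors and -0.12 with the length trend removed. Within them *Lims1* (0.87), *Ptk2*, the focal adhesion kinase (0.64), and *Fermt2*, kindlin 2 (0.61), were higher and *Zyx*, zyxin, lower (-0.56). After removal of the GC trend *Lims1* was at 0.44, *Ptk2* at 0.30 and *Fermt2* at 0.33, each within 1.5-fold, and *Zyx* at -0.50. Of 8 enzymes that crosslink or process matrix, 6 were lower, with a median of -0.30 (-0.56 to -0.20 over the alternatives). The lysyl oxidase *Lox* had 869 and 1140.3 (-0.39) and *Loxl1* 240 and 293 (-0.29), whereas *Tgm2*, the transglutaminase that crosslinks fibronectin, had 29.7 and 18.4 (0.66). Of 11 matrix proteases and inhibitors, 8 were lower and 3 higher, all within 1.5-fold, with a median of -0.11 (-0.37 to -0.11). *Timp1*, the inhibitor of metalloproteinases with the highest level, had 1375 and 1486 (-0.11).

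The pathways known to act on several of the 9 genes were followed through their other target genes. Of 18 YAP-TEAD target genes other than the 9, 14 were higher and 4 lower, with a median of 0.39. Beside 3.14% of the 11213 genes at least 2-fold higher, 2 of the 18 were more than 2-fold higher in FPKM + 1. These were *Ankrd1*, a cardiac and muscle ankyrin repeat protein, with 5.51 in TGFBR3 OE and 2.08 in control (1.08, 0.97 to 1.19), and *Gadd45a*, a stress and growth-arrest gene, with 26.8 and 12.5 (1.05, 0.97 to 1.12), and the intervals of both reach below 2-fold. The median of this list was 0.24 with the GC trend removed, 0.18 with TMM scaling and 0.15 with DESeq2 size factors. Its most abundant gene, *Axl*, a receptor tyrosine kinase, had 294 and 219 (0.43), and *F3*, tissue factor, had 139 and 102 (0.44). *Ccdc80*, which was more abundant than *F3*, was slightly lower at 131 and 140 (-0.10), and *Ccn1* and *Ccn2* above were lower too. Of 10 TGF-β response genes, 7 were lower and 3 higher, with a median of -0.17 (-0.42 to -0.15 over the alternatives). *Ltbp2*, a latent TGF-β binding protein relative, had 87.5 and 151 (-0.78), and *Skil*, a feedback inhibitor of the pathway, 4.04 and 2.12 (0.69). The SRF-MRTF targets were 7 lower and 6 higher of 13, with a median of -0.13 (-0.39 to -0.06). Of these contractile genes, *Acta2*, smooth muscle actin, had 323 and 499 (-0.63) and *Tagln*, transgelin, 107 and 184 (-0.78). *Acta2* and *Tagln* are counted in both the TGF-β and the SRF-MRTF list, so these lists are not independent. They were the only 2 SRF-MRTF targets at least 1.5-fold lower, and 2 of the 3 such TGF-β response genes. Among the 11213 genes, 4.91% were at least 1.5-fold lower.

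Collagen chains, which are laid down on fibronectin, lay lower than the matricellular genes. Of 18 chains 17 were expressed, and all 17 were lower, 12 of them by 1.5-fold or more and 6 by 2-fold or more. Among the 11213 genes, 4.91% were at least 1.5-fold lower and 1.03% at least 2-fold lower. The median of the chains was -0.79 (-1.06 to -0.79 over the alternatives), beside -0.13 for the 9 genes and 0.14 for all genes. *Col1a1* had 467 in the library labelled TGFBR3 OE and 869.95 in the library labelled control (-0.89), *Col3a1* 95.8 and 199 (-1.05) and *Col6a1* 29.2 and 75.2 (-1.33). The value of *Fn1*, -1.28, lay among the lowest collagen chains, whereas the ratios of *Sparc* and *Postn* lay near the highest value among the chains, -0.11. Of the 4 small leucine-rich proteoglycans expressed, 2 were lower and 2 higher, with a median of -0.01 (-0.27 to -0.01), and with *Bgn*, biglycan, at 944 and 1045 (-0.15) and *Fmod*, fibromodulin, at 63.9 and 105 (-0.71). These differences between lists were not tested, since each group held 1 library. The adipocyte markers were mostly lower as well, with 4 of 5 expressed markers lower, a summed FPKM of 37.5 in TGFBR3 OE and 70.8 in control, and *Cfd*, adipsin, at 15.3 and 39.0 (-1.29). *Fabp4*, a fatty acid binding protein, was at 12.6 and 13.9 (-0.14), and *Pparg*, the regulator of adipocyte differentiation, was the one higher at 2.19 and 1.61 (0.29). Their part in the matrix values was not tested.

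The genes nearest to each of the 9 in both libraries were found by the Euclidean distance between their log2(FPKM + 1) values over the 2 libraries. *Fn1* had no close neighbour, with *Eef2*, a translation elongation factor, nearest at a distance of 0.60. *Thbs1* lay nearest to *Pkm*, pyruvate kinase (0.03), then *Bgn* (0.17). *Tnc* lay nearest to *F2r*, a thrombin receptor (0.05), *Spp1* to the chemokine *Cxcl5* (0.02) and *Ccn1* to *Gnai2*, a G protein subunit (0.04). *Ccn2* had neighbours at 0.21 or more, among them *Efemp1*, which encodes the matrix protein fibulin 3.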

How the data were processed

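The authors deposited for each library a table of gene counts and FPKM values. Per the labels, poly(A) RNA was made into dUTP-stranded libraries and sequenced as paired reads of 150 nt, and the submitters' processing notes name cutadapt 1.9, HISAT2 2.2.1, StringTie 2.1.6, DESeq2, edgeR and mm10, whereas the methods name STAR and FeatureCounts; which made the deposited tables, and the annotation release, were not given in the sources used here. Protein sequences were not analysed here.

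Ratios were computed in Python 3.11.15 (pandas 2.3.3) as log2 of (FPKM + 1), TGFBR3 OE over control, with genes called at 2-fold. Intervals are exact (Clopper-Pearson) 95% binomial intervals on the counts (scipy 1.17.1), or Wald intervals for ratios between genes; they cover counting error only. Backgrounds held genes whose FPKM averaged at least 1 (expressed) or at least 100 (abundant). Alternatives were a pseudocount of 0.1, plain FPKM ratios, centring, CPM, TMM scaling (edgeR 4.0.16), DESeq2 1.42.0 size factors, FPKM rescaled without the 50 highest genes, and removal of GC and length trends over 20 bins. GC content, exon lengths and overlaps came from GENCODE M21. Named genes were the 9 members, *Tgfbr3*, the 3 largest ratios and 2 highest levels of each list, list genes past 2-fold, and the 3 nearest genes of each member; of these the text gives a part, and beside them a few list genes (among them *Ccn3*, *Ccn4*, *Thbs3*, *Pi16* and the defining markers) chosen after their values were seen. The members and lists were chosen with earlier results of these data known. The calculation was tested on simulated data.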

Additional observations from a re-analysis of the deposited data

How the results depend on the processing

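No member changed sides of the 2-fold threshold with scaling or pseudocount. *Fn1* was at least 2-fold lower in each of the 9 alternative calculations (-1.62 to -1.28), although none of the 9 members was at least 4-fold lower (0 members), and 1, *Tnc*, was at least 1.5-fold higher. The median ratio of the members, -0.13, was -0.26 centred, -0.15 by CPM, -0.36 with TMM scaling and -0.39 with DESeq2 size factors. It was -0.15 with FPKM rescaled without the 50 highest genes, -0.28 with the GC trend removed and -0.28 with the length trend removed. In 7 of the 9 alternatives every member except *Tnc* had a negative ratio. Among these, that of *Thbs2* was hardly different from 0 by CPM (-0.0006) and with FPKM rescaled (-0.003). Ratios of counts between members, and values without *Fn1*, were added after seeing the data. The median without *Fn1* was -0.10 and the members' share of counts without *Fn1* was 1.70% in TGFBR3 OE and 1.89% in control, against 2.44% and 3.70%. The shares were 2.76% and 4.35% when the 50 highest genes outside the members were left out of the total, and 2.50% and 3.82% among protein-coding genes. No paired analysis was possible because each group had 1 library, so no replicate could be left out either. At these depths the counting intervals of the members are narrow and say nothing of the spread between cultures, which these data cannot give. The 2 gene entries named *CT010467* took 156954 counts in TGFBR3 OE and 964549 in control, nearly all in 1 ribosomal RNA entry (156067 and 961935). Their part in the scaling was not tested beyond the alternatives above.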
